A study of Drosophila melanogaster with 90 samples.

Results

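RpS19b, RpS10a and RpL22-like and their partners, 3 pairs of ribosomal protein genes and 6 genes of 17493 in the count tables, were followed through ovaries of Drosophila melanogaster with mutant alleles of small ovary (sov) or with an RNAi hairpin that targets it. The pairs were RpS19b with RpS19a, RpS10a with RpS10b, and RpL22-like with RpL22. In each pair the first gene is the copy known for germline expression and the second is its broadly expressed partner. Members were chosen by gene symbol, with earlier results of these data known. All 6 genes were listed for all 90 libraries, and 92 genes of the table carried a cytoplasmic ribosomal protein symbol (RpL or RpS).

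Each ribosome holds a single molecule of most of its proteins, and where the genome encodes a protein in 2 copies either product can occupy the same place in the subunit. RpS19 and RpS10 are components of the small subunit and RpL22 of the large subunit. In Drosophila, RpS19b transcripts are known from germline stem cells and their early daughters, RpS10a from the gonads, and RpL22-like from the male germline.

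PolyA RNA was sequenced from pools of 15 ovaries of females aged 4 to 5 days, with 3 libraries for each of 30 genotypes. The 10 control genotypes (30 libraries) were w1118/w1118 and single copies of each sov allele over w1118, written as Dfsov, KG00226, NP6070, sov2, sovEA42 and sovML150, with KG00226, NP6070 and sov2 present in both written orders. Dfsov is a deficiency named for the gene, on a w[1118] chromosome. KG00226 is a SUPor-P transposon insertion on a y[1] chromosome, NP6070 a GawB (GAL4 enhancer trap) insertion on a y w chromosome, and sov2 lies on a chromosome marked with y, cv, v and f. The sovML150 allele lies on a w[1118] chromosome, and no marker is given for sovEA42. The 7 sterile mutant genotypes (21 libraries) were NP6070 over itself, and Dfsov, sovEA42 and sovML150 each over KG00226 and over sov2. The 7 fertile mutant genotypes (21 libraries) were KG00226 over itself and, in either written order, KG00226 over NP6070, KG00226 over sov2 and NP6070 over sov2. Alleles therefore recur between genotypes of a class. The written orders of the same pair of alleles were counted as separate genotypes. In the other 18 libraries the drivers da-Gal4 (daughterless, broad), nos-Gal4 (nanos, germline) or tj-Gal4 (traffic jam, somatic gonad) expressed a hairpin against sov (sterile) or against mCherry (fertile). The sov hairpin (TRiP.HMC04875) was inserted at attP40 and the mCherry hairpin at attP2, on y sc v backgrounds, so the hairpins also differ in insertion site.

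The libraries held 2110 to 13164806 gene counts, and the median library 4346724.5. Only 3 lay under 100000, namely sov2/w1118 replicate 1, Dfsov/sov2 replicate 3 and sovML150/KG00226 replicate 2, and the other 87 held at least 932267. The 3 low libraries were summed into the class comparisons and left out of the levels and of the comparisons of single genotypes. KG00226/w1118 replicate 3 stood apart from the other control libraries over 100000 counts in its share of transposable element reads. By sov itself the groups were not cleanly separated. Mean sov levels were 100.2 to 199.9 CPM (counts scaled to a common library size) over the control genotypes and 83.9 to 333 CPM over the sterile genotypes. Under da-Gal4, sov was at 186, 154 and 199 CPM with the mCherry hairpin and at 123, 125 and 137 CPM with the sov hairpin. Under tj-Gal4 it was at 163, 154 and 167 CPM against 236, 223 and 214 CPM, so the 3 libraries labelled tj-Gal4/sov-RNAi had higher sov levels than their controls. Under nos-Gal4 the values, 178, 137 and 177 CPM against 203, 153 and 155 CPM, overlapped. In whole ovaries, fewer cells of a type and less RNA per cell cannot be told apart.

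The 3 partners lie on the X chromosome and the 3 germline copies on autosomes (BDGP6, release 6). RpS19b (FBgn0039129) spans 23932729 to 23933530 of 3R on the minus strand, and RpS19a (FBgn0010412) spans 16637894 to 16639249 of X on the plus strand. RpS10a (FBgn0027494) spans 27652760 to 27653363 of 3R on the plus strand. Its single annotated transcript is 604 bases long, the length of the gene, so it has no intron. RpS10b (FBgn0285947) spans 19598031 to 19599806 of X on the plus strand. RpL22-like (FBgn0034837) spans 23246610 to 23247893 of 2R on the minus strand, and RpL22 (FBgn0015288) spans 762560 to 765130 of X on the minus strand. An exon of RpS10b overlaps CG14220 on the opposite strand, and RpL22 overlaps lncRNA:CR42491 on its own strand.

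In control ovaries the 3 partners were abundant mRNAs, whereas RpS19b, RpS10a and RpL22-like were close to absent. Divided by median transcript length, the median level over the 10 control genotypes was 3170 CPM per kilobase for RpS19a, 2067 for RpS10b and 1416 for RpL22. The ranges over control genotypes did not overlap between RpS19a (2560 to 3780 CPM per kilobase) and RpS10b (1812 to 2533), or between RpS10b and RpL22 (1027 to 1779). Without division by length they overlapped, at 1735 to 2563 CPM for RpS19a, 1406 to 1966 for RpS10b and 1130 to 1957 for RpL22. Annotated RpS10b transcripts run from 651 to 1469 bases, so the separation depends on the length used. On the per-kilobase scale RpS19b had a median of 1.27 CPM per kilobase (0.536 to 2.62), RpS10a of 0.453 (0.0551 to 3.47) and RpL22-like of 0.0559 (0 to 0.166).

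In counts, the 30 control libraries together held 124 reads of RpS19b beside 317577 of RpS19a, 72 of RpS10a beside 242967 of RpS10b, and 9 of RpL22-like beside 221179 of RpL22. RpL22-like was at 0 in 22 of the 30 libraries. A transfer of reads between the copies of a pair was not tested, and the intervals below cover counting error only.

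**Figure D1:**
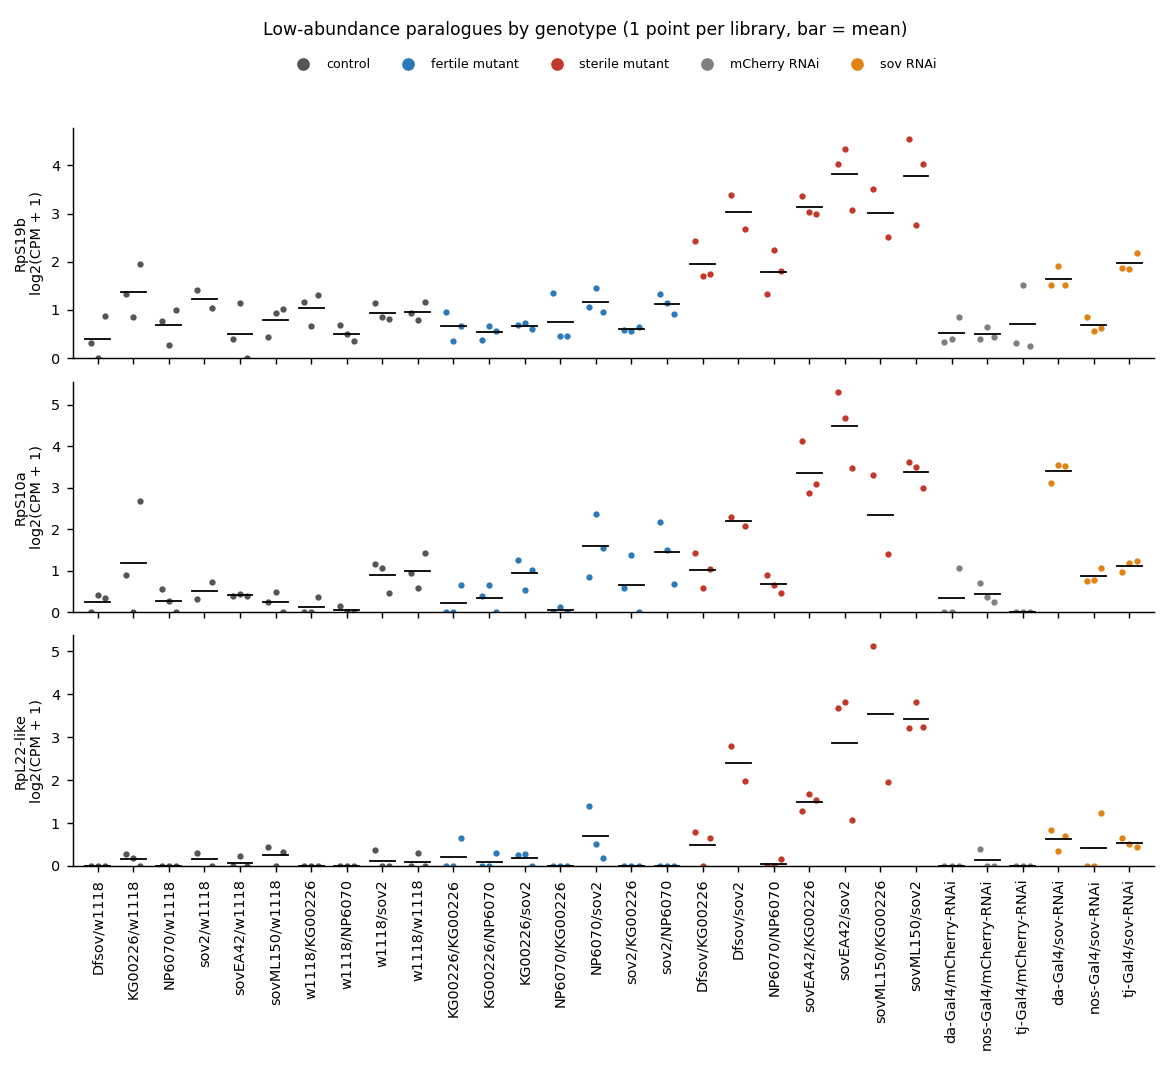
Level of RpS19b, RpS10a and RpL22-like, as log2(CPM + 1) on the vertical axes, in the 30 genotypes on the horizontal axis. Each point is a library of at least 100000 gene counts and each bar a genotype's mean on this log scale. As means of CPM, the sterile genotypes (red) reach 14.6 CPM for RpS19b, 24.3 CPM for RpS10a and 18.2 CPM for RpL22-like, and the highest control is at 2.09 CPM, for RpS10a.

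RpS19b and RpS10a rose in sterile sov mutant ovaries, and none of the 3 partners was called higher. Sterile genotypes were compared with controls over genotypes (7 against 10), with 44.4% of the 8449 features tested called in either direction at an adjusted p under 0.05 (24.6% higher, 19.8% lower). Of the 6 genes, 5 were tested, 2 were called higher and 2 lower. RpL22-like had too few reads for the test, since only 5 genotypes, all sterile, passed the level needed. RpS19b passed it in 7 sterile, 2 fertile and 6 control genotypes and RpS10a in 6, 4 and 3.

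RpS19b gave the clearest separation. Its counts in the 3 libraries were 18, 9 and 29 in Dfsov/KG00226, 7, 20 and 20 in NP6070/NP6070, 13, 76 and 29 in sovEA42/KG00226, 61, 69 and 34 in sovEA42/sov2, and 22, 14 and 119 in sovML150/sov2. It had counts of 59 and 20 in Dfsov/sov2 and of 19 and 23 in sovML150/KG00226, with 1 and 0 in their low libraries. Controls held 0 to 9 counts per library. Mean levels were 2.59 to 14.6 CPM over the sterile genotypes (median 7.60) and 0.355 to 1.74 CPM over the controls (median 0.843), with no overlap between these genotype means. Single libraries did overlap, since the lowest sterile library was at 1.50 CPM and the highest control library at 2.89 CPM. The fitted log2 fold change was 3.19 ± 0.34 (SE; 7 and 10 genotypes; adjusted p = 2.35e-07, edgeR quasi-likelihood test). Against fertile mutants it was 3.34 ± 0.39 (adjusted p = 5.34e-06).

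RpS10a rose with more variation among genotypes. It had 153, 88 and 46 counts in sovEA42/sov2, 23, 66 and 31 in sovEA42/KG00226 and 11, 25 and 54 in sovML150/sov2. Only 7, 2 and 13 counts were found in Dfsov/KG00226 and 4, 3 and 3 in NP6070/NP6070. Genotype means ran from 0.599 to 24.3 CPM (median 5.23) in sterile ovaries and from 0.0333 to 2.09 CPM (median 0.273) in controls, so the groups overlapped at their edges. The control at 2.09 CPM was KG00226/w1118, where replicate 3 held 15 counts and the others 4 and 0. The fitted log2 fold change was 3.82 ± 0.72 against controls (adjusted p = 0.000156) and 2.70 ± 0.76 against fertile mutants (adjusted p = 0.00797).

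RpL22-like was detected in most sterile genotypes. It had 61 and 14 counts in sovML150/KG00226, 8, 32 and 65 in sovML150/sov2, 47, 47 and 5 in sovEA42/sov2, 37 and 11 in Dfsov/sov2, and 2, 23 and 8 in sovEA42/KG00226. Dfsov/KG00226 held 3, 0 and 7 counts, and NP6070/NP6070 0, 0 and 1. Summed over libraries, 371 reads in sterile ovaries against 9 in controls gave a 64.1-fold higher level in CPM (95% counting interval 33.4 to 141). Levels differed between libraries of a genotype, as in sovML150/KG00226 (18.2 ± 21.7 CPM, SD, n = 2).

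Of the 3 partners, 2 fell and 1 was not called. RpS19a fell by 0.51 on the log2 scale (SE 0.11, adjusted p = 0.000616) and RpL22 fell by 0.54 (SE 0.14, adjusted p = 0.00323). RpS10b was not called, at -0.21 ± 0.10 (adjusted p = 0.0851). The other cytoplasmic ribosomal protein genes moved in the same range: of 79 tested, 0 rose, 60 fell and 19 were not called, with a median log2 change of -0.36 beside 0.00 over all features. The range over the 79 was -0.66 to -0.07, and RpS19b and RpS10a lay above all of them. RpL22 lay below 73 of them and RpS19a below 71.

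Among 19 other ribosomal paralogue genes, all part of the ribosomal protein set above, RpL10Aa, RpS28a, RpS28-like, RpL37-2 and RpL7-like were at too few reads for the test. Of the 14 tested, already counted in that set, 0 rose and 11 fell, with a median of -0.35. RpS14b changed by -0.65 ± 0.17 (adjusted p = 0.00324) and its neighbour RpS14a by -0.08 ± 0.13 (adjusted p = 0.645). RpLP0, a stalk protein of the large subunit, changed by -0.55 ± 0.13 and RpL34b by -0.48 ± 0.11. None of the 14 was called higher.

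**Figure D2:**
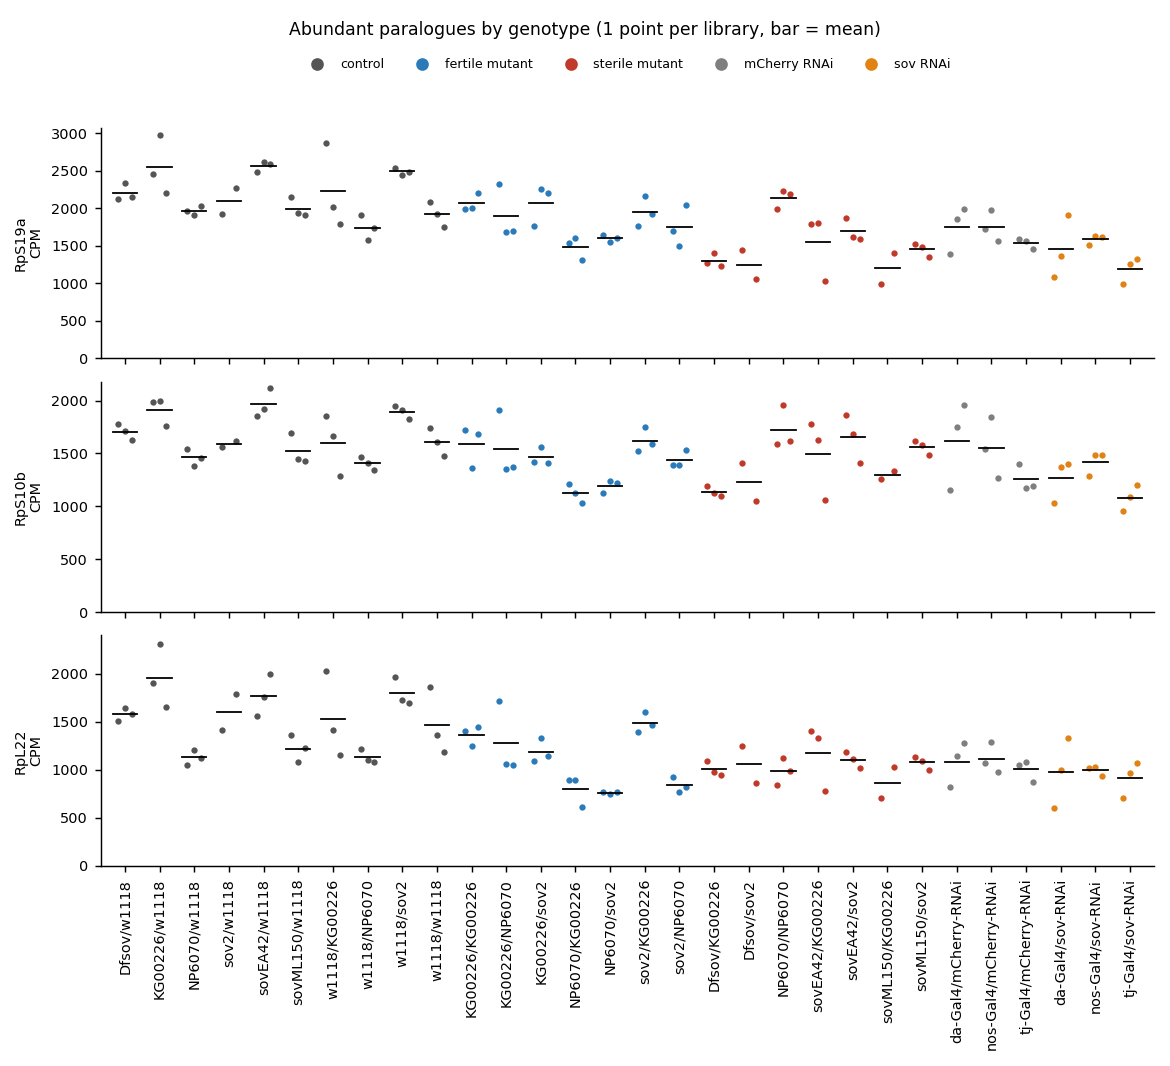
Level in CPM (vertical axes, from 0) of the 3 partners in the 30 genotypes (horizontal axis). Each point is a library and each bar a genotype mean. The sterile means (red) of RpL22 lie between 869 and 1172 CPM beside 1130 to 1957 CPM in controls.

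Several other things moved with the sterile class. All 14 muscle genes tested rose, and the summed level of the list was 890 to 15295 CPM over the sterile genotypes beside 701 to 1004 CPM in controls. Eggshell genes fell in 13 of 14 (964 to 29970 CPM beside 29409 to 62868 CPM). Germline genes fell in 8 of 14, with 3040 to 4793 CPM beside 4696 to 5430 CPM. Of 16 early germline and meiotic genes, 10 rose and 1 fell (median log2 change 1.19), although their summed level overlapped (849 to 1051 CPM beside 892 to 981 CPM). No gene of these 4 lists was at 0 in either class. In NP6070/NP6070 RpS19b was also higher, RpS10a was not called and RpL22-like had 1 read. There the muscle list was at 890 CPM, and 2 of 14 muscle genes and 3 of 5 neuron genes rose against heterozygotes of the allele. The 15 testis genes summed to 87.3 to 131 CPM in sterile ovaries and 93.0 to 140.0 CPM in controls, with djl and Mst84Da at 0 in both and can, dj, ProtA, ProtB and sa at 0 in controls only. Of the 4 testis genes with enough reads for the test, 2 rose and 1 fell. Of 15 genes of the ovarian soma 3 rose and 9 fell, of 7 hemocyte genes 3 rose and 2 fell, of 6 fat body genes 3 rose, and all 4 neuron genes tested rose. The part of these lists in the rise of RpS19b, RpS10a and RpL22-like was not tested.

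In ovaries of fertile sov mutants none of the 5 genes tested was called against controls, where 3.93% of all features were. At an unadjusted p under 0.05, RpS19a, RpS10b and RpL22 were lower. The nearest to the threshold was RpL22, at -0.47 ± 0.14 (adjusted p = 0.0557), and 1 gene, RpL22, was called by DESeq2. The 79 other ribosomal protein genes tested ranged from -0.54 to -0.14 (median -0.26). RpS19a (-0.26) and RpS10b (-0.24) lay near that median, and RpL22 lay below 75 of the 79. RpS19b lay at -0.15 ± 0.36 (adjusted p = 0.882), with genotype means of 0.456 to 1.26 CPM. Between sterile and fertile mutants, where 35.7% of features were called (21.4% higher), RpS19b and RpS10a were the 2 genes called, both higher.

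Read as a share of its pair, RpS19b rose from 0.0167% to 0.0592% of RpS19 reads in the control genotypes to 0.122% to 0.988% in the sterile genotypes, with no overlap. The mean log2 ratio of RpS19b to RpS19a was -11.36 ± 0.53 (SD, n = 10) in controls, -11.28 ± 0.70 (n = 7) in fertile and -7.84 ± 1.07 (n = 7) in sterile mutants. Sterile mutants exceeded controls by 3.52 (exact two-sided permutation p = 0.000103, adjusted p = 0.00123 over 12 ratio tests). Sterile exceeded fertile mutants by 3.44 (exact permutation p = 0.000583, adjusted p = 0.00185). Between fertile mutants and controls it was 0.08 (exact permutation p = 0.780).

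For RpS10a the share of the pair reached 1.42% in sovEA42/sov2 and was 0.0326% in NP6070/NP6070, the lowest sterile value. The log2 ratio differed by 3.63 between sterile mutants and controls (exact permutation p = 0.000617, adjusted p = 0.00185) and by 2.65 between sterile and fertile mutants (exact permutation p = 0.0210, adjusted p = 0.0360). The second difference lost its call in 8 of the fits that left out 1 genotype, where the adjusted p reached 0.0659. For RpL22-like the share was 0.00563% to 1.17% in sterile genotypes and 0 to 0.0129% in controls. Its log2 ratio to RpL22 differed by 5.45 (exact permutation p = 0.000206, adjusted p = 0.00123), and by 4.78 from fertile mutants (exact permutation p = 0.00524, adjusted p = 0.0105). Some control and fertile genotypes held no RpL22-like reads. Their ratios were set by the value added to each count and by the RpL22 count. The sizes of these RpL22-like differences therefore depend on the added value. In summed reads these 3 copies stayed the minor partner, at no more than 1.42% of a pair in any sterile genotype. The highest single library was sovML150/KG00226 replicate 1, where RpL22-like made up 4.53% of its pair.

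Each of the 14 mutant genotypes was then set against heterozygotes for its own alleles, in a single fit over 69 libraries. These comparisons share control libraries. In this fit, leaving out a replicate dropped every library with that number, controls included. A call lost this way is not tied to a library of the named genotype. The low-abundance copies entered this fit mainly through the sterile libraries where they were high, so their calls describe those libraries and support no count over the 6 genes. RpS19b reached the level needed in 18 of 19 sterile, 0 of 21 fertile and 1 of 29 control libraries, RpS10a in 12, 2 and 1, and RpL22-like in 9, 0 and 0. Among all features, the share called was 40.0% in Dfsov/KG00226 (21.4% higher, 18.5% lower), 50.2% in Dfsov/sov2 (27.8% and 22.5%) and 38.3% in sovEA42/KG00226 (21.4% and 17.0%). It was 39.5% in sovEA42/sov2 (23.5% and 16.0%), 52.2% in sovML150/KG00226 (28.3% and 23.9%) and 62.7% in sovML150/sov2 (33.4% and 29.4%). In NP6070/NP6070, 13.8% were higher and 12.1% lower. In fertile genotypes it was 3.18% in KG00226/KG00226, 4.57% in KG00226/NP6070, 6.90% in KG00226/sov2, 25.0% in NP6070/KG00226, 18.5% in NP6070/sov2, 3.91% in sov2/KG00226 and 12.4% in sov2/NP6070.

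RpS19b was called higher in all 7 sterile genotypes and in 0 of the 7 fertile ones. Its log2 change was smallest in Dfsov/KG00226 (2.05 ± 0.48, adjusted p = 0.000511) and in NP6070/NP6070 (2.19 ± 0.48, adjusted p = 0.000472). It was highest in sovEA42/sov2 (4.06 ± 0.39, adjusted p = 5.35e-12) and sovML150/sov2 (3.91 ± 0.39, adjusted p = 1.54e-12). In Dfsov/KG00226 the call was lost without replicate 1 (1.62, adjusted p = 0.0505). Over the fertile genotypes the log2 change lay between -1.16 and 0.70.

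RpS10a was called higher in 5 sterile genotypes, with 5.67 ± 0.60 in sovEA42/sov2 (adjusted p = 4.80e-11) at the top. It was not called in Dfsov/KG00226 (1.89 ± 0.91, adjusted p = 0.0911) or NP6070/NP6070 (2.12, adjusted p = 0.165). Without replicate 1, which leaves a single library whose spread is taken from the other genotypes, the calls in Dfsov/sov2 (adjusted p = 0.0679) and sovML150/KG00226 (adjusted p = 0.237) were lost. It was also higher in 2 fertile genotypes, which carry the same pair of alleles. NP6070/sov2 had 3, 19 and 14 counts (2.98 ± 0.70, adjusted p = 0.00203) and sov2/NP6070 46, 9 and 2 counts (2.91 ± 0.67, adjusted p = 0.00167). The first call was lost without replicate 2 (adjusted p = 0.136) and the second without replicate 1 (adjusted p = 0.198).

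RpL22-like was called higher in 6 sterile genotypes and in NP6070/sov2. In sovML150/KG00226 the fitted change was 7.37 ± 0.82 (adjusted p = 1.58e-09), where 75 reads, 61 of them in 1 library, were set against 5 in heterozygotes. In summed reads the level was 103-fold higher there (95% counting interval 42.1 to 325) and 106-fold higher in sovEA42/sov2 (35.4 to 525), so these genotypes were not ranked. In NP6070/NP6070 there was 1 read. NP6070/sov2 had 6, 2 and 1 counts (3.71 ± 1.17, adjusted p = 0.0234), and its call was lost without replicate 1 or replicate 2. The weakest sterile call, in Dfsov/KG00226 (3.68 ± 1.44, adjusted p = 0.0393), was lost in each fit that left out 1 replicate number. DESeq2 gave an adjusted p of 0.0584.

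**Figure D3:**
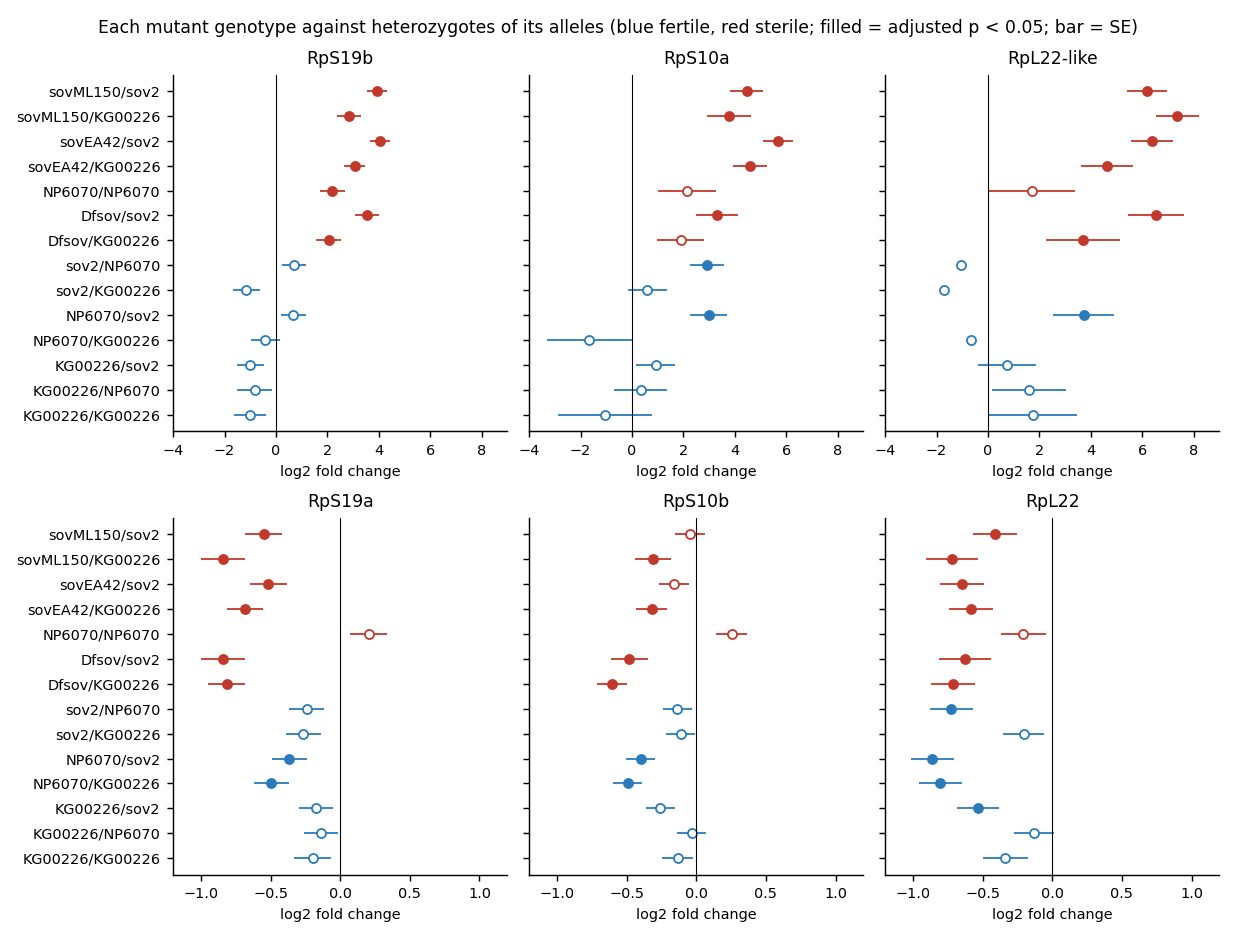
Log2 fold change (horizontal axes) of each of the 6 genes in the 14 mutant genotypes (vertical axis) against heterozygotes of the same alleles, with bars for the standard error where one could be had. Filled points had an adjusted p under 0.05. RpS19b is filled in all 7 sterile genotypes (2.05 to 4.06) and in no fertile genotype; the scales of the 3 low-abundance genes are wider than those of the 3 partners.

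Among the partners, RpS19a and RpL22 were each lower in 6 of 7 sterile genotypes, all but NP6070/NP6070, with log2 changes down to -0.84 for RpS19a and -0.72 for RpL22. RpS10b was lower in 4, of which the call in Dfsov/KG00226 alone held without each replicate. Leaving out 1 replicate ended the RpL22 call in Dfsov/sov2, sovEA42/KG00226, sovML150/KG00226 and sovML150/sov2 (adjusted p up to 0.273). In fertile genotypes the partners had 8 calls, all falls, in NP6070/KG00226, NP6070/sov2, sov2/NP6070 and KG00226/sov2. These were RpL22 in 4 of the 7, and RpS19a and RpS10b in 2 each. The other ribosomal protein genes fell in the same genotypes: 76 of 80 in NP6070/KG00226 (median -0.61), 65 in NP6070/sov2 (-0.47), 40 in sov2/NP6070 (-0.35) and 11 in KG00226/sov2 (-0.27). RpL22 changed by -0.80, -0.86, -0.73 and -0.53 in these genotypes in the same order. On the spike-in scale all 8 falls lost their call, and the RpL22 values were -0.68 ± 0.33, -0.65 ± 0.33, -0.58 ± 0.33 and -0.15 ± 0.32. KG00226/KG00226, KG00226/NP6070 and sov2/KG00226 had no call.

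By their known expression da-Gal4 is broad, nos-Gal4 germline and tj-Gal4 somatic, and where the hairpin acted was not measured. Under da-Gal4, 21.1% of the 7700 features tested were called (10.1% higher), under nos-Gal4 2.62%, and under tj-Gal4 11.8% (9.31% higher). Of the 5 genes tested, RpS19b and RpS10a were called higher under da-Gal4 and under tj-Gal4, and none was called under nos-Gal4, where none had an unadjusted p under 0.05 and DESeq2 also called 0. Both entered this fit only through libraries with the sov hairpin: RpS10a reached the level needed in the 3 da-Gal4 libraries, and RpS19b in 3 tj-Gal4 libraries and 1 da-Gal4 library, beside 0 of 9 mCherry libraries for each.

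RpS10a had 0, 0 and 4 counts with da-Gal4 and the mCherry hairpin and 49, 38 and 34 in the libraries labelled da-Gal4/sov-RNAi (9.58 ± 1.67 CPM, SD, n = 3). The groups did not overlap, though the share of all features without overlap was not counted. The log2 change was 4.57 ± 0.58 (adjusted p = 3.08e-05). Under tj-Gal4 RpS10a had 0, 0 and 0 counts against 5, 12 and 11 (adjusted p = 0.00561). With 3 counts set for the 3 mCherry libraries its level was 5.05-fold higher, with no allowance for counting error in the sov-hairpin libraries. With nos-Gal4 the counts were 2, 1 and 1 against 5, 3 and 4 (log2 change 1.23 ± 0.84, adjusted p = 0.608). With the sov hairpin the mean was 1.18 CPM under tj-Gal4 and 0.833 CPM under nos-Gal4.

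RpS19b had 1, 1 and 3 counts against 12, 10 and 6 under da-Gal4 (2.13 ± 0.66, adjusted p = 0.0276). Under tj-Gal4 it had 1, 6 and 1 against 14, 25 and 29 (2.14 ± 0.53, adjusted p = 0.00950). The groups did not overlap in CPM under either driver, though the share of all features without overlap was not counted. Under nos-Gal4 RpS19b had 1, 2 and 2 against 6, 2 and 2 (0.66 ± 0.78, adjusted p = 0.811). These calls rest on few reads. The da-Gal4 call was lost without mCherry replicate 1 or 2 or sov replicate 1 or 2 (adjusted p up to 0.0830), and the tj-Gal4 call without mCherry replicate 1 or 3 (adjusted p up to 0.0887).

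RpL22-like, below the level needed for the test, had 0, 0 and 0 counts against 5, 1 and 2 under da-Gal4. It had 0, 0 and 0 against 3, 4 and 3 under tj-Gal4. With 3 counts set for the mCherry libraries its level was 2.15-fold higher under da-Gal4 and 1.8-fold higher under tj-Gal4. Both values make no allowance for counting error in the sov-hairpin libraries. Under nos-Gal4 RpL22-like had 1, 0 and 0 against 0, 0 and 5, all 5 in 1 library, and the groups overlapped.

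**Figure D4:**
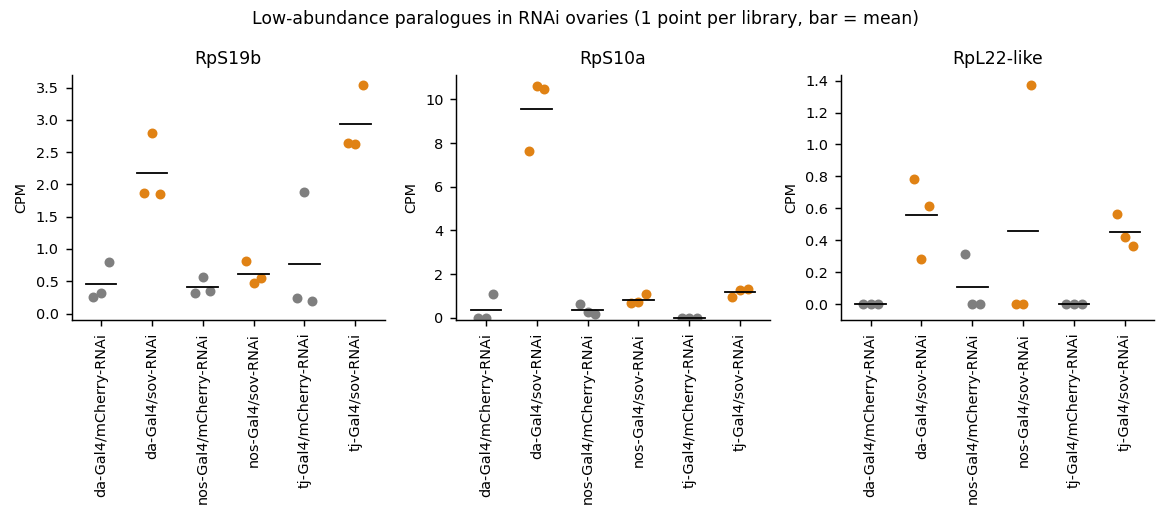
Level in CPM (vertical axes) of RpS19b, RpS10a and RpL22-like in the 3 libraries of each driver and hairpin (horizontal axes), with bars for the means. RpS10a reaches a mean of 9.58 CPM in the libraries labelled da-Gal4/sov-RNAi, and RpS19b 2.17 CPM there and 2.93 CPM in those labelled tj-Gal4/sov-RNAi.

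The drivers could not be ranked. Among 15 tests of a difference between drivers (5 genes, 3 pairs of drivers) 0 were called by edgeR's quasi-likelihood test and 0 by DESeq2, beside 4.87% of all features for nos against tj, 1.30% for da against nos and 10.7% for da against tj. Both tests with an unadjusted p under 0.05 were of RpS10a. Its effect under nos-Gal4 was smaller than under tj-Gal4 by -4.36 ± 1.79 (adjusted p = 0.222), a value that depends on the 0 counts of the tj-Gal4 control, and its effect under da-Gal4 exceeded that under nos-Gal4 by 3.33 ± 1.28 (adjusted p = 0.272). For RpS19b the differences were -1.48 ± 1.05 (adjusted p = 0.558) and 1.47 ± 1.11 (adjusted p = 0.643). On the spike-in scale, where the median feature shifted by 1.27 for nos against tj and 1.12 for da against tj, 5 of the 15 were called. The misses do not show that the drivers act alike.

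The partners gave no call under any driver, with log2 changes between -0.35, for RpS19a under tj-Gal4 and RpS10b under da-Gal4, and -0.11, for RpL22 under tj-Gal4. Under tj-Gal4, 13 of 14 muscle genes also rose, with a summed level of 3752 CPM beside 864 CPM, and so did 5 of 9 hemocyte genes. Under da-Gal4, 4 of 14 muscle genes rose (1142 CPM beside 1023 CPM). Of 14 early germline and meiotic genes, 7 rose and 3 fell under da-Gal4 and 5 rose under tj-Gal4, whereas 0 were called under nos-Gal4. The part of these lists in the RpS10a and RpS19b values was not tested.

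Each sample had 10 pg of ERCC spike-in RNA for 200 ng of total RNA, so this scale is relative to total RNA, not to an ovary or cell. Spike-in subpools were unevenly spread. All tj-Gal4/sov-RNAi libraries had subpool 78A, beside 78B, 78B and 78A in their controls, and all sovML150/KG00226 libraries had 78B. Scaling by the spike-ins in place of the endogenous genes moved the median of all features by -1.33 (log2) in sterile mutants against controls, 0.39 in fertile mutants against controls and -1.73 between sterile and fertile mutants. For the hairpins the shift was -1.36 with tj-Gal4, -0.21 with da-Gal4 and -0.08 with nos-Gal4. On that scale 497 of 7600 calls between sterile mutants and controls were rises, beside 2077 of 3750 on the endogenous scale. The same split was 281 of 7605 beside 1812 of 3016 between sterile and fertile mutants, 202 of 216 beside 218 of 332 between fertile mutants and controls, and 295 of 7074 beside 717 of 912 for tj-Gal4. RpS19b still changed by 1.58 ± 0.40 (adjusted p = 0.000419) and RpS10a by 2.41 ± 0.61 (adjusted p = 0.000387), which is 2.91 and 3.74 above the median of all features. RpS10a between sterile and fertile mutants lost its call (0.96 ± 0.64, adjusted p = 0.151). In single genotypes RpS19b lost its call in Dfsov/KG00226 (1.22, adjusted p = 0.0901) and sovML150/KG00226 (0.14, adjusted p = 0.824), where it lay 1.84 and 2.82 above the median. RpS10a lost its call in Dfsov/sov2 (1.22, adjusted p = 0.149) and sovML150/KG00226 (1.14, adjusted p = 0.161), and RpL22-like in Dfsov/KG00226 (3.10, adjusted p = 0.0758). Under tj-Gal4 RpS19b (0.82 ± 0.73, adjusted p = 0.274) and under da-Gal4 RpS19b (1.92 ± 0.83, adjusted p = 0.214) were not called on that scale, and RpS10a was called under both. Ratios within a pair do not depend on this scaling.

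Across the 30 genotype means, RpS19b moved with RpS10a (Pearson r = 0.868) and RpL22-like (r = 0.897), and the partner RpS19a with RpS10b (r = 0.860) and RpL22 (r = 0.790). RpS19b and its own partner had r = -0.54, RpS10a and RpS10b r = -0.11, and RpL22-like and RpL22 r = -0.30. These values are descriptions, since genotypes share alleles and the sterile group alone spreads the points. Among 8781 features, those most like RpS19b were ord (r = 0.937), a meiotic cohesion protein, stan (r = 0.935), an atypical cadherin, sli (r = 0.932), the secreted ligand of Robo receptors, fat-spondin (r = 0.929) and Tep4 (r = 0.929), a thioester protein. Those most like RpS10a were SkpC (r = 0.910), corolla (r = 0.883), a synaptonemal complex protein, gNacalpha (r = 0.882), sli (r = 0.881) and blanks (r = 0.880), an RNA-binding protein of the male germline. Of these, ord, corolla and blanks also belong to the list of early germline and meiotic genes.

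RpL22-like was most like Gagr (r = 0.979), CG12477 (r = 0.965), CG13403 (r = 0.964), CG15599 (r = 0.959) and Cyt-c1L (r = 0.959), all of low level in controls and all measured in the same libraries.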

How the data were processed

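The deposited values are raw counts of reads per gene, transposable element family and ERCC spike-in, 1 column per library. Per the series text, stranded 50 bp single-end reads were mapped to release 6.21, with HISAT2 2.0.5, HTSeq 0.7.2 and CASAVA 1.8.2 among the tools of the submitters' processing notes. How reads matching several places were counted is not given in the sources used here, though the count of such reads is 0 in all 90 libraries. Counting summaries (12.6% to 63.1% of a library) were left out. Symbols came from a BDGP6 annotation (17365 of 17493 identifiers).

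Genes and element families were tested with edgeR 4.0.16 (TMM, filterByExpr, quasi-likelihood F test, R 4.3.3), with Benjamini-Hochberg adjustment over all features and a threshold of 0.05. Class comparisons used counts summed per genotype, with genotypes sharing alleles. Written orders of the same pair entered separately, so class and permutation p-values treat as independent some genotypes that are not. RNAi and single-genotype fits used libraries, so p-values measure the spread between pools of ovaries. The SE of a log2 change is its absolute value divided by the square root of F, not a value given by the fit. Ratios, with 0.5 added to each count, were compared by exact two-sided permutation tests over genotypes, adjusted over 12 tests, of which 9 are given; 1 further pair is not reported here. For a fold against 0 reads, 3 counts were set on that side, with no interval and no counting error for the other side. The intervals given are exact at 95%. CPM used TMM-scaled library sizes. The fits were tested on simulated data. DESeq2 1.42.0, ERCC scaling, no filter, blocks and left-out libraries or genotypes were tried. Genes named beside the 6 followed 2 rules: the other ribosomal paralogues with the largest called changes, and the 5 features closest in Pearson r to each germline copy. Members, lists and alternatives were chosen with earlier results of these data known. Sequences are not used here.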

Additional observations from a re-analysis of the deposited data

Results flagged for a closer look

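The values below stood far from the rest of their class, in 5 of 27 groups examined. The rule flags about 1 in 20 groups by chance where values are normally distributed and groups independent. Low counts and their shares are not, so no excess over chance is read from this. RpS10a in KG00226/w1118, at 2.09 CPM, was the highest control, with the next at 1.04 CPM, and replicate 3 of that genotype held 15 of its 19 counts. RpS10a in sovEA42/sov2, at 24.3 CPM, was the highest sterile genotype, with the next at 10.0 CPM. RpL22-like in NP6070/sov2, at 0.732 CPM, was the highest fertile genotype, with the next at 0.195 CPM. As a mean over libraries, its share of the RpL22 pair there was 0.0952%, with the next at 0.0135%, and in summed reads it was 0.0755%. The mean over libraries of the RpL22-like share in sovML150/KG00226 was 2.40%, with the next sterile genotype at 0.912%, beside 1.17% in summed reads, and its 2 usable libraries held 61 and 14 counts.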

How the results depend on the processing

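Of 1834 repeats of single results under other settings, 1709 kept direction and side of the threshold. ERCC scaling gave 4 called genes in place of 2 for sterile against fertile mutants and 1 in place of 2 under da-Gal4. It gave 4 in place of 2 under tj-Gal4 and 5 in place of 0 between drivers. Most features were called lower on that scale for sterile against fertile mutants and under tj-Gal4. For sterile against fertile mutants RpS19b was called higher and RpS19a, RpS10b and RpL22 lower (-1.85, -1.65 and -1.81, all-feature median -1.73). Under tj-Gal4 RpS10a was called higher and the same partners lower (-1.69, -1.52 and -1.46, all-feature median -1.36). ERCC scaling also changed the sign of RpS19b (0.16), RpS19a (0.13) and RpS10b (0.15) for fertile mutants against controls. It did so for RpS10b (-1.65) between sterile and fertile mutants. None of these was called on the endogenous scale. DESeq2 called 1 gene for fertile mutants against controls and turned RpS10b in sovML150/sov2 (0.033). With no filter, RpS10b for sterile against fertile mutants was -0.033. With the spike-in subpool as a term, RpL22 (0.12) turned under tj-Gal4.

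Leaving out 1 genotype gave 0 to 1 called genes for fertile mutants against controls, RpS10b from -0.031 to 0.082 and RpL22 from -0.15 to 0.016 for sterile against fertile mutants. The ratios ran from 2.21 to 3.14 (RpS10) between sterile and fertile mutants and from -0.082 to 0.18 (RpS19) between fertile mutants and controls. Leaving out 1 library gave 1 to 3 called genes under da-Gal4 and 1 to 2 under tj-Gal4. It gave RpL22 -0.44 to 0.12 under da-Gal4, RpS10b -0.27 to 0.016 under nos-Gal4 and RpL22 -0.23 to 0.044 under tj-Gal4. The causes were not tested.

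Replicate numbers did not pair the libraries: same-numbered libraries deviated together in 2 of 49 pairs of groups (correlations from -0.32 to 0.46). With the replicate number as a block, the single-genotype calls came to 45, as without it, 2, 0 and 2 genes were called under da-Gal4, nos-Gal4 and tj-Gal4, and none of the 77 results changed its direction or side. The counts of single-genotype calls ranged from 33 to 46 over all settings. Depth limits RpS19b, RpS10a and RpL22-like, which rest on 0 to 153 counts a library.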
